A study of Mus musculus with 36 samples.

Results

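The genes described here encode 10 proteins that bind AU-rich or stem-loop elements of mRNA: Zfp36, Zfp36l1, Zfp36l2, Rc3h1, Rc3h2, Elavl1, Arid5a, Hnrnpd, Khsrp and Tia1. They were taken by symbol, and all 10 were found among 52636 gene identifiers and passed the filter on low counts, as did 13748 genes in all. Their mRNA was measured by RNA-seq in mouse bone marrow-derived macrophages, which are macrophages grown from bone marrow with the growth factor M-CSF. Wild-type (WT) and N4bp1 knockout (KO) cells, from mice on the C57BL/6N background, all received R837 (imiquimod, an agonist of the RNA sensor TLR7). Treatment lasted 3 h or 7 h, or 3 h before an inhibitor of transcription, actinomycin D (ActD), was added for a further 0.5, 1, 2 or 4 h. There were thus 12 groups of 3 libraries, and within a group each library came from a different mouse, per the labels. Cells without R837 were not analysed here, and every value is a level in, or a change among, stimulated cells.

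AU-rich elements in 3′ UTRs recruit proteins that set how long an mRNA lasts and how well it is translated. Zfp36 (tristetraprolin), Zfp36l1 and Zfp36l2 are CCCH zinc-finger proteins that bring the CCR4-NOT deadenylase to such mRNAs, among them the mRNA of Tnf, and tristetraprolin also acts on its own mRNA. Rc3h1 and Rc3h2 encode Roquin-1 and Roquin-2, RING-type proteins that bind stem-loops in 3′ UTRs and promote decay. Hnrnpd (AUF1) and Khsrp (KSRP) encode AU-rich element binding proteins best known for promoting decay. Elavl1 (HuR) protects many of the same mRNAs, Arid5a stabilises Il6 mRNA against the endonuclease Regnase-1, and Tia1 represses translation of AU-rich mRNAs. In macrophages these proteins limit or prolong cytokine production after Toll-like receptor signals.

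Several of the genes hold in their own 3′ UTR an AU-rich motif, the type of element that part of the 10 proteins bind. The nonamer TTATTTATT was found in the 3′ UTR of 6 of the 10 genes, against 8.01% of 11611 tested genes that had an annotated 3′ UTR. The sites are shown because they are AU-rich, as are the elements bound by Zfp36 and its relatives. The Roquins bind stem-loops, and the nonamer is not given here as their site. Each is a 30-base window of the transcript's strand, written with T, from GENCODE M21 transcripts on GRCm38, with the nonamer (or overlapping nonamers) in capitals.
Zfp36 (chr7:28376950-28376979, minus strand): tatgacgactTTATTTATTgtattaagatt
Zfp36l1 (chr12:80108166-80108195, minus strand): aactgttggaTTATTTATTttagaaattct
Zfp36l2 (chr17:84184913-84184942, minus strand): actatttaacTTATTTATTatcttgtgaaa
Rc3h1 (chr1:160970043-160970072, plus strand): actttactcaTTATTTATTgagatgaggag
Rc3h2 (chr2:37373286-37373315, minus strand): caaagacattTTATTTATTttactctgtaa
Elavl1, first window (chr8:4285787-4285816, minus strand): gtcatgaaaaTTATTTATTTATTTATTtat
Elavl1, second window (chr8:4285749-4285778, minus strand): atttgtttgtTTATTTATTTATTTATTact
Elavl1 held 8 nonamers in all and each of the other 5 genes held 1. Not all of those of Elavl1 lie wholly within its windows, and only those that do are in capitals. The nonamer contains the pentamer ATTTA, of which Zfp36 held 3 in a 3′ UTR of 774 bases, Elavl1 held 17 in 4218 bases and Rc3h2 held 25 in 5331 bases. Long 3′ UTRs hold more of either motif by their length. Among genes whose 3′ UTR was within 20% of its length, a nonamer was present in 4.54% for Zfp36, 9.13% for Zfp36l1, 9.17% for Zfp36l2, 24.1% for Rc3h1, 21.2% for Rc3h2 and 18% for Elavl1. No nonamer was found in Arid5a, Hnrnpd, Khsrp or Tia1, which held 2, 10, 1 and 8 ATTTA pentamers. These are matches of letters, and binding was not measured. The 4 genes without a nonamer lie at chr1:36307733-36324029 (Arid5a), chr5:99955935-99978938 (Hnrnpd), chr17:57021051-57031522 (Khsrp) and chr6:86404219-86433405 (Tia1).

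In RefSeq promoter windows of GRCm38.p6, which run from 250 bases before to 50 bases after the start, 9 of the 10 genes had an entry. Zfp36 held a CArG box, the motif bound by serum response factor, 58 bases before its start (CCATAAAAGG), and Hnrnpd held another at its start (CCATTTTAGG). CArG boxes were in 1.63% of 32851 promoters. Zfp36l1 held TATAAA 29 bases before its start (13.6% of promoters) and Rc3h1 held TGAGTCA on the opposite strand (5.2%). Both strands were searched, also for TGACGTCA (1.79%) and the NF-kB consensus (4.51%), which matched none of the 9 windows.

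Libraries held 20.3 to 46.1 M gene counts (median 26.3 M). N4bp1, the targeted gene, was lowered but not absent in KO, at 84.1 ± 2.45 CPM against 134 ± 12 CPM (SD, n = 3) at 3 h and at 143 ± 1.99 against 175 ± 6.91 CPM at 7 h. After 4 h of ActD it was higher in KO, at 87.7 ± 9.52 against 57.6 ± 5.11 CPM. Which part of the gene was deleted is not stated in the labels, so its summed count cannot check the genotype of every library. Macrophage markers (8 genes) summed to between 21300 and 25800 CPM at 3 h in both genotypes. This sum rests largely on Lyz2 (median 15700 CPM over all libraries). Among the 8 genes 4 were called higher and 1 lower in KO at 3 h, and 2 and 1 at 7 h. Over all tested genes 27.8% were called at 3 h and 30.6% at 7 h. Fibroblast and stromal markers (8 genes, 7 tested) were low but higher in KO, with sums of 32.4 to 34.3 CPM against 15.7 to 19 CPM at 3 h and 37.1 to 39 against 17.7 to 20.8 CPM at 7 h. For these, 6 of 7 tested genes were higher at 3 h and 7 of 7 at 7 h. B and plasma cell markers summed to 105 to 111 CPM in KO and 56.8 to 61.7 CPM in WT at 3 h, and to 71 to 74.6 against 39.9 to 47.7 CPM at 7 h. Here 4 of 8 tested genes were higher and 1 lower at 3 h, and 3 and 0 at 7 h. Dendritic cell markers summed to 127 to 147 CPM in KO and 112 to 116 CPM in WT at 3 h, and to 158 to 167 against 77.6 to 84.4 CPM at 7 h, where 3 of 6 tested genes were higher and 1 lower. At 3 h 2 were higher and 2 lower. Neutrophil markers overlapped at 3 h (520 to 630 against 523 to 631 CPM) and were at 822 to 856 CPM in KO against 534 to 558 CPM in WT at 7 h, where 1 of 8 passed, as higher. At 3 h 4 of 8 passed, as higher. T and NK cell markers summed to 96.4 to 115 against 70.5 to 95.7 CPM at 3 h and to 34.4 to 37.1 against 35.8 to 42.6 CPM at 7 h. Here 1 of 5 tested genes was higher and 1 lower at 3 h, and 2 and 2 at 7 h. Mast cell and basophil markers stayed at 6.86 CPM or less in these 4 groups, with 4.87 to 5.23 CPM in KO and 2.65 to 3.19 CPM in WT at 7 h. At each of these times 1 of 5 tested genes was higher and 0 lower. The part of these cells in the differences below was not tested. In bulk RNA a change in cell composition and a change in RNA per cell cannot be told apart.

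Zfp36 was by far the most abundant of the 10 mRNAs per length. In WT cells at 3 h its level was 246 ± 17.8 RPKM (TMM-normalized, SD, n = 3), against 20.5 ± 1.61 RPKM for Elavl1, the next. Arid5a (7.86 ± 0.0997 RPKM), Khsrp (7.13 ± 0.437), Rc3h1 (5.99 ± 0.803), Hnrnpd (4.96 ± 0.278), Tia1 (4.08 ± 0.374), Rc3h2 (3.19 ± 0.291), Zfp36l1 (2.31 ± 0.142) and Zfp36l2 (1.37 ± 0.257) followed in that order. Of neighbours in this order, only Rc3h1 and Hnrnpd had overlapping ranges over the 3 libraries. By 7 h Zfp36 was still highest in both genotypes, at 120 ± 3.3 RPKM in WT and 166 ± 2.56 RPKM in KO. Zfp36l1 was the lowest of the 10 in WT at 7 h (1.78 ± 0.0866 RPKM) but the fifth in KO (4.89 ± 0.497 RPKM), where its range overlapped that of Arid5a. Levels of Zfp36l1 are uncertain, because 54.4% of its distinct 50-base stretches are shared with other annotated genes, mostly with the lincRNA gene Gm26669 on the opposite strand. The labels do not say whether counting used strand, and Gm26669 held 0 or 1 counts in every library. For the other 9 genes at most 5.06% of such stretches were shared.

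**Figure D1:**
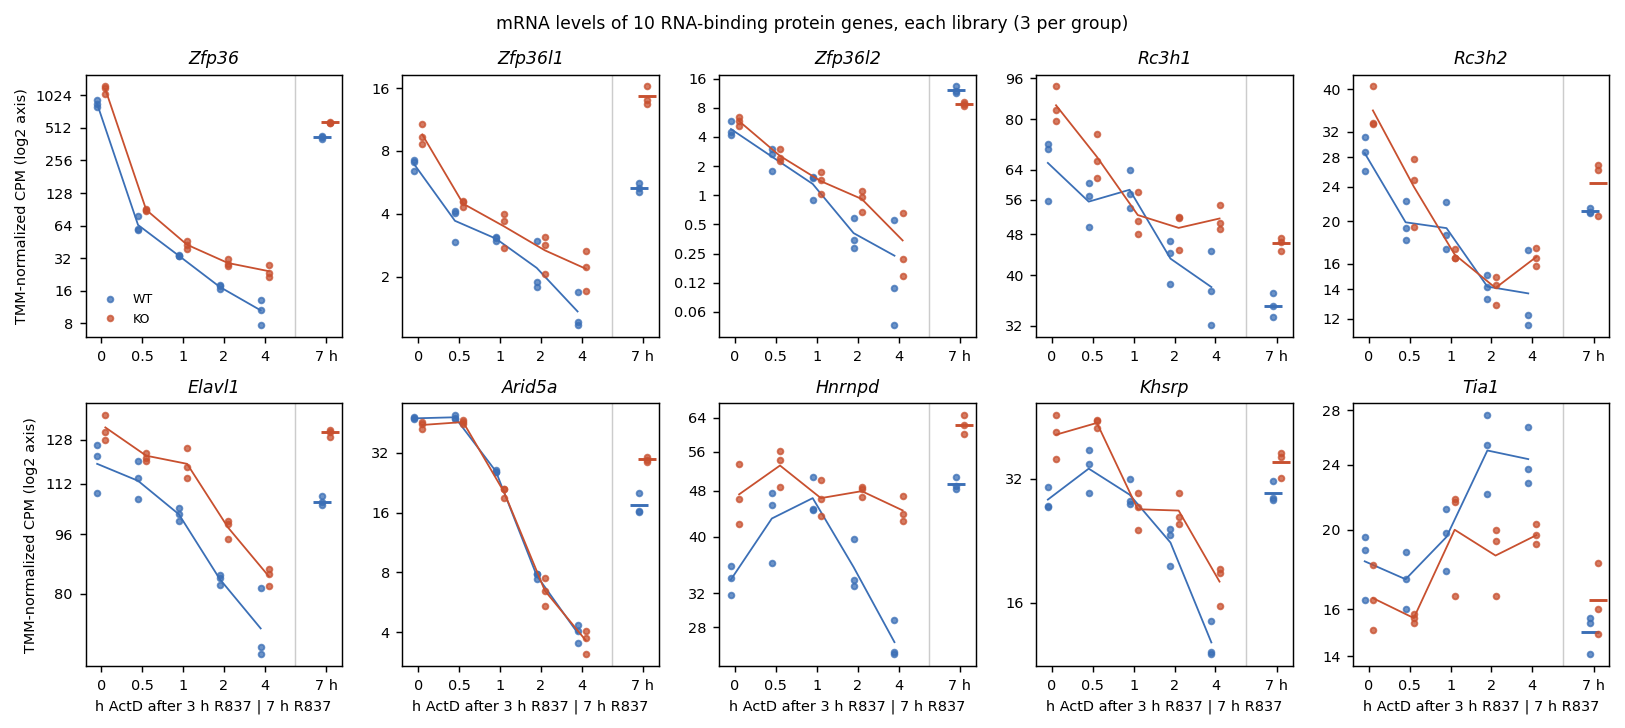
TMM-normalized CPM (log2 axis, a different range in each panel) of the 10 genes in each library, 3 per group. The left of each panel runs over hours of ActD after 3 h of R837, with lines through group means, and the right shows 7 h of R837 with means as bars. Zfp36 falls within 0.5 h of ActD from 798 CPM or more to 91 CPM or less in both genotypes, and Arid5a falls only after 0.5 h.

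The first comparison asked how the knockout changed these mRNAs at 3 h of R837. The 6 genes Zfp36, Zfp36l1, Rc3h1, Rc3h2, Hnrnpd and Khsrp were higher in KO by 1.25- to 1.44-fold, and none of the 10 passed as lower in this fit. Elavl1, Arid5a, Tia1 and Zfp36l2 did not pass. Of all 13748 tested genes, 27.8% were called in this comparison, 15.2% higher and 12.6% lower. The median log2 fold change of the 10 genes was 0.35, against 0.01 over all tested genes. Scaling on ribosomal protein and elongation factor genes (stable-reference scaling) moved that median of all genes to 0.19 and the share of calls that were higher from 54.7% to 88.2%.

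Zfp36 was at 846, 921 and 798 CPM in the WT libraries and at 1240, 1200 and 1060 CPM in the KO libraries at 3 h. Every KO library was above every WT library, and the means differed by 1.37-fold (log2 fold change 0.45 ± 0.09 SE, edgeR quasi-likelihood adjusted p = 0.000366). Khsrp was at 27.5, 30.5 and 27.4 CPM in WT and at 45.7, 41.6 and 35.8 CPM in KO. These groups did not overlap either (log2 0.53 ± 0.10, edgeR adjusted p = 9.36e-05). Hnrnpd, at 33.8 ± 1.89 CPM in WT and 47.3 ± 5.7 CPM in KO, showed a log2 fold change of 0.49 ± 0.09 with its groups apart. Groups did not overlap for 37.4% of all tested genes in this comparison. For Zfp36l1 the means were 6.92 ± 0.426 and 9.59 ± 1.08 CPM (log2 0.48 ± 0.14, edgeR adjusted p = 0.0108).

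The Roquin genes differed least among those that passed. Rc3h1 was at 65.9 ± 8.84 CPM in WT and 85.1 ± 6.77 CPM in KO (log2 0.37 ± 0.10, edgeR adjusted p = 0.00466). Rc3h2 was at 28.6 ± 2.61 and 35.8 ± 4.1 CPM (log2 0.33 ± 0.11, edgeR adjusted p = 0.0295). Across all genes the KO minus WT difference at 3 h rose with gene width (Spearman correlation 0.3 across genes, which are not independent replicates). With that trend removed the Rc3h1 and Rc3h2 values were 0.15 and 0.13 and neither passed, whereas Arid5a passed as lower in KO (-0.24, edgeR adjusted p = 0.0203). Without the third WT library the count at 3 h was 3 genes, and Zfp36l1, Rc3h1 and Rc3h2 no longer passed. Zfp36, Hnrnpd and Khsrp still passed without that library, and also without both it and the first KO library (0.36, 0.35 and 0.42).

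At 7 h of R837 Zfp36l1 was 2.74-fold higher and Arid5a 1.69-fold higher in KO, whereas Zfp36l2 was lower in KO at 0.719 of the WT level. Zfp36, Elavl1, Hnrnpd and Rc3h1 were also higher, by 1.23- to 1.38-fold, so that 6 genes were higher and 1 lower. In this comparison 30.6% of all tested genes were called (15.5% higher, 15.1% lower), and 50.6% of the calls were higher (30.7% with total-count scaling). With stable-reference scaling 4 of the 10 genes passed. The median log2 fold change was 0.32 over the 10 genes and -0.01 over all.

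Zfp36l1 was at 5.6, 5.32 and 5.08 CPM in WT and at 13.5, 16.3 and 14 CPM in KO at 7 h. The lowest KO library lay above the highest WT library by more than the whole spread of either group (log2 1.45 ± 0.14, edgeR adjusted p = 6.44e-11). Arid5a was at 16.3, 20.1 and 16.1 CPM in WT and at 30.6, 29.5 and 28.6 CPM in KO. These groups were also apart (log2 0.75 ± 0.08, edgeR adjusted p = 1.11e-09). Zfp36 was at 421, 427 and 405 CPM in WT and at 574, 570 and 587 CPM in KO. It was again apart, with a log2 fold change of 0.47 ± 0.09 (edgeR adjusted p = 0.000131). Groups did not overlap for 52.2% of all tested genes in this comparison.

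For Zfp36l2 the libraries were at 11.9, 13.3 and 11.4 CPM in WT and 9.25, 8.7 and 8.39 CPM in KO. The groups did not overlap, but the call was near the threshold (log2 -0.48 ± 0.18, edgeR adjusted p = 0.0432) and ended when any of the 6 libraries was left out. Elavl1 differed little but evenly, at 106 ± 1.36 CPM in WT and 131 ± 1.4 CPM in KO (log2 0.30 ± 0.06, edgeR adjusted p = 0.000249). Khsrp, which passed at 3 h, was at 0.25 ± 0.10 (edgeR adjusted p = 0.0532) at 7 h.

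Under ActD Zfp36 was higher in KO at each of the 4 times, and the number of the other genes that passed differed between times. At 0.5 h 4 of the 10 genes were higher in KO and 0 lower, where 26.4% of all tested genes were called, 13.7% higher and 12.7% lower. At 1 h 2 were higher and 1 lower (17.4% of all, 7.51% higher and 9.92% lower). At 2 h the counts were 4 and 1 (30.2%, 14.7% and 15.4%), and at 4 h 6 and 1 (35.6%, 17.7% and 17.9%). Zfp36 passed at all 4 times with its groups apart, with log2 fold changes of 0.47 ± 0.10, 0.34 ± 0.10, 0.73 ± 0.11 and 1.21 ± 0.12. At 4 h its libraries were at 13.1, 10.6 and 7.67 CPM in WT and at 27.8, 23.2 and 21.5 CPM in KO, and the lowest KO library was above the highest WT library. The weakest call, at 1 h (edgeR adjusted p = 0.0175), did not hold with stable-reference scaling (0.21) or total-count scaling (0.29). Hnrnpd passed at 0.5 h (not with the width trend removed, 0.19), 2 h and 4 h, and at 4 h was at 26.4 ± 2.01 CPM in WT and 44.4 ± 2.25 CPM in KO (log2 0.75 ± 0.09). At 1 h its genotypes had the same mean, 46.6 CPM. The count at 0.5 h was 1 without the third WT library and 2 without the first KO library of that time, and the count at 1 h was 1 without the first KO library of that time.

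Elavl1 was higher in KO at 1, 2 and 4 h of ActD (log2 0.22 to 0.23), at 1 h not with stable-reference scaling (0.09) and at 4 h not with the width trend removed (0.11), and its KO libraries lay above its WT libraries in all 6 conditions. Over the 6 conditions 32.3% to 52.2% of all tested genes had groups that did not overlap in either direction. Arid5a was lower in KO at 1 h of ActD (20.3 ± 1.1 against 25.8 ± 0.319 CPM, log2 -0.34 ± 0.08, edgeR adjusted p = 0.00245), opposite to its direction at 7 h of R837. With the width trend removed this call ended (-0.21). Tia1 was lower in KO at 2 h (-0.43 ± 0.10) and 4 h (-0.31 ± 0.10), the latter not with stable-reference scaling (-0.04). Zfp36l2 passed at 2 h (log2 1.21 ± 0.42, edgeR adjusted p = 0.0269) on 7 to 12 counts per WT library and 17 to 30 per KO library, and that call ended when any of 4 of the 6 libraries was left out.

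**Figure D2:**
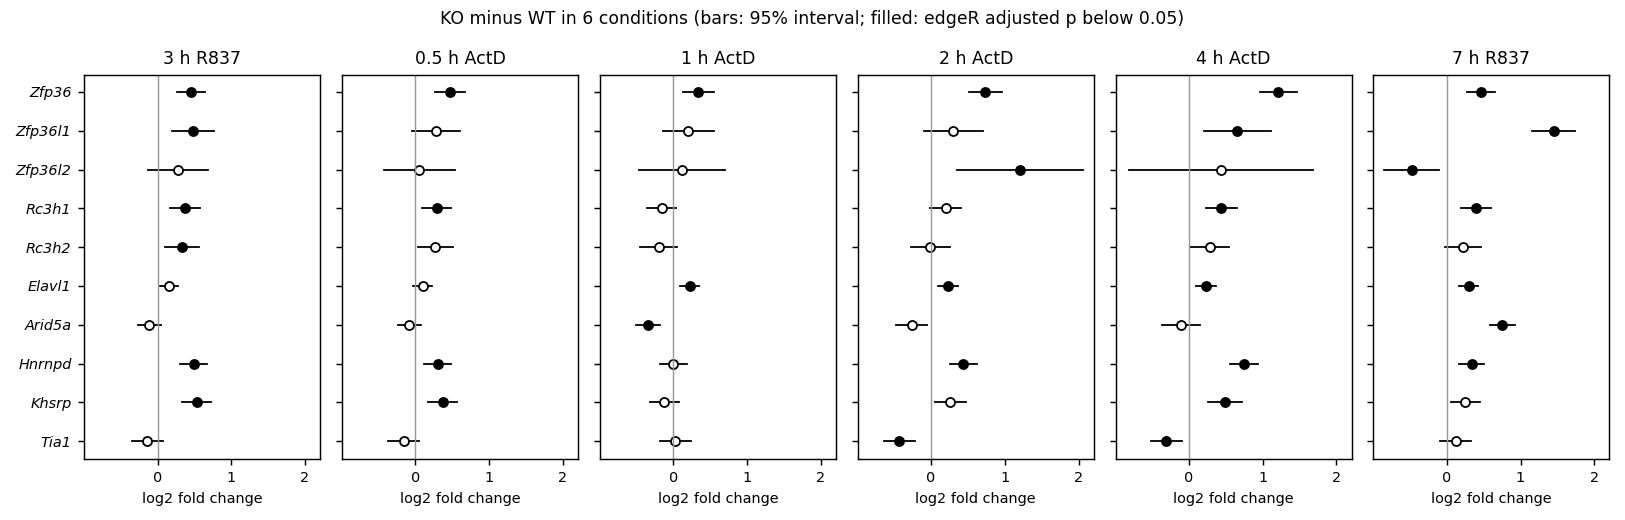
KO minus WT log2 fold change of each gene in the 6 conditions, with 95% intervals as bars, and filled points where the edgeR adjusted p was below 0.05. Zfp36 is filled in all 6 panels, and the value farthest to the right at 7 h of R837 is that of Zfp36l1 (1.45).

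ActD shows how much of each mRNA is left once transcription stops. Levels are relative to the average transcript, since the labels name no spike-in. All 4 times in a genotype were compared with the same 3 libraries at 3 h of R837 without ActD, so these contrasts share their controls. The genes fell into fast, delayed and slow declines. Zfp36 was down to 7.56% of its starting level in WT by 0.5 h (95% interval 6.52% to 8.76%) and 7.65% in KO (6.6% to 8.86%). At 4 h it was at 1.23% (1.03% to 1.46%) in WT and 2.08% (1.77% to 2.45%) in KO. In libraries, the WT values went from 846, 921 and 798 CPM without ActD to 77.7, 58.9 and 57.8 CPM after 0.5 h, a gap far wider than the spread within either group. Over the 12 groups, means of Zfp36 spanned 111-fold, against 1.67-fold for Tia1.

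Zfp36l1 and Zfp36l2 fell more slowly than Zfp36. Zfp36l1 was at 53.4% of its start in WT and 46.5% in KO after 0.5 h, and at 19.9% and 22.5% after 4 h. Zfp36l2 was at 51.6% and 44.2% after 0.5 h and at 4.75% and 5.3% after 4 h, where it held 1 to 14 counts per library. Arid5a showed a lag. It was at 47, 48.2 and 47.7 CPM in WT without ActD and at 49.3, 47.5 and 47.9 CPM after 0.5 h, so the groups overlapped (log2 0.02 ± 0.08). It was then at 54.1% of its start at 1 h, 16.2% at 2 h and 8.31% at 4 h in WT, and at 45.9%, 14.6% and 8.33% in KO.

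The remaining genes lasted longer. At 4 h Elavl1 was at 60.4% of its start in WT and 63.7% in KO, Rc3h1 at 57.7% and 60.5%, Rc3h2 at 47.6% and 46.1%, and Khsrp at 45% and 43.7%. All 8 of these changes passed, but with the trend in gene width removed those of Rc3h1 were -0.13 and -0.06 on the log2 scale and did not. Hnrnpd rose in WT at 0.5 h (127% of its start) and 1 h (138%) and fell by 4 h (78.2%). In KO it was at 93.6% at 4 h, which did not pass. The rise of Hnrnpd at 0.5 h in WT did not pass with stable-reference scaling or with only the compared libraries. It also ended without the first or second WT library at 0.5 h or the third WT library at 3 h. Tia1 rose relative to the average transcript, to 133% in WT and 119% in KO at 4 h. Its direction turned with stable-reference scaling to log2 -0.18 and -0.26, and that of Hnrnpd at 4 h turned with the width trend removed, to 0.14 in WT and 0.39 in KO.

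After 0.5 h of ActD 1 gene was higher and 4 lower in WT, where 7.22% of all tested genes were called (3.7% higher, 3.51% lower), and 0 and 5 in KO (7.44%, with 3.11% and 4.34%). After 1 h the counts were 1 and 6 in WT (22%, with 10% higher and 12% lower) and 1 and 8 in KO (36.2%, with 16.6% and 19.5%). After 2 h they were 1 and 8 in WT (49.8%, with 23.4% and 26.5%) and 0 and 8 in KO (51.3%, with 23.8% and 27.4%). By 4 h they were 1 and 9 in WT (68.5%, with 31.9% and 36.6%) and 1 and 8 in KO (68%, with 31.2% and 36.7%). The median log2 change at 4 h was -1.11 in WT and -1.16 in KO, against -0.03 and -0.04 over all genes tested.

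**Figure D3:**
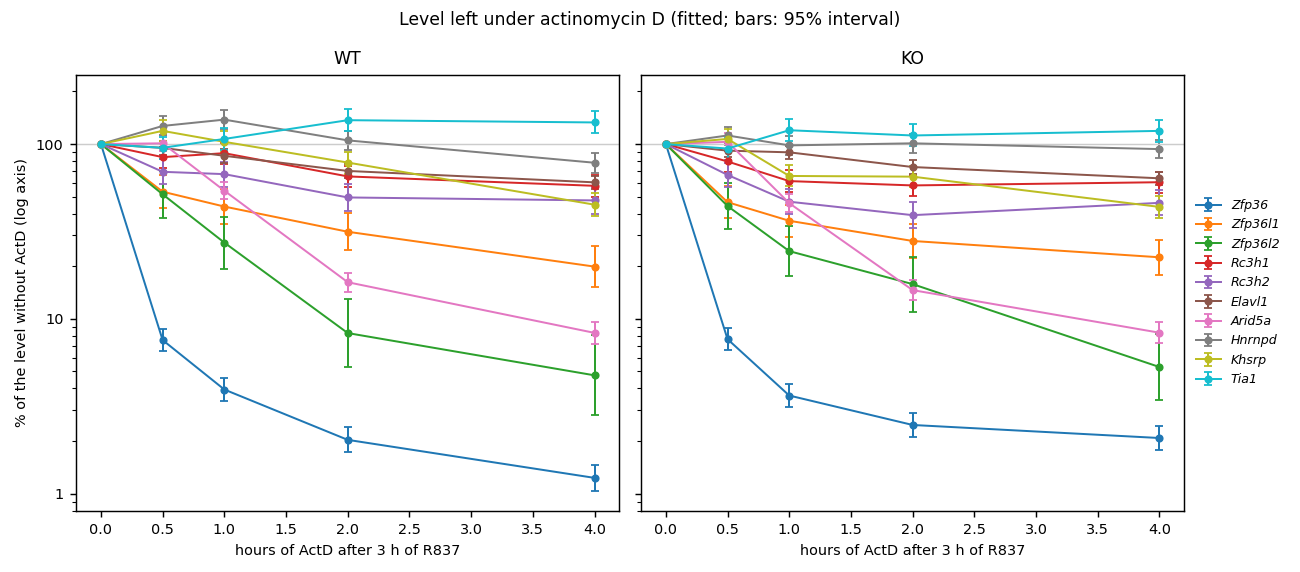
Fitted level of each gene as a percentage of its level without ActD (log axis) over hours of ActD, in WT (left) and KO (right), with 95% intervals as bars. Zfp36 is at 7.65% or less from 0.5 h on, Arid5a stays near 100% at 0.5 h, and Tia1 ends above 100%. In WT Arid5a ends at 8.31% and Zfp36l2 at 4.75%.

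Whether the decline differed between genotypes was tested as the difference of the changes. None of the 10 genes passed at 0.5 h (0.0218% of all tested genes called, 0 higher) or at 2 h (0.0582% called, 0.0364% higher and 0.0218% lower), with edgeR and with DESeq2, and 0 had an unadjusted p below 0.05 at either time. For Zfp36 at 0.5 h the ratio of the KO change to the WT change was 101% (95% interval 83.7% to 122%). At 2 h that ratio was 121% (99% to 149%). The unadjusted edgeR quasi-likelihood p of Zfp36, Zfp36l2, Rc3h2 and Tia1 at 2 h lay between 0.0551 and 0.0614. At 4 h Zfp36 alone passed (0.291% called, 0.211% higher and 0.08% lower), with a log2 difference of 0.76 ± 0.15 (edgeR adjusted p = 0.0146), which is less decline in KO. This call ended without the first KO library at 4 h of ActD (0.63), the second (0.77) or the third (0.58) WT library at that time, or the second WT library at 3 h (0.71). It also ended with stable-reference scaling (0.83) or a fit of only the compared libraries (0.78).

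At 1 h the changes of Rc3h1 (-0.53 ± 0.14), Rc3h2 (-0.53 ± 0.17), Hnrnpd (-0.49 ± 0.12) and Khsrp (-0.65 ± 0.14) were lower in KO, so that 0 of the 10 were higher and 4 lower, and 10.7% of all tested genes were called (3.91% higher, 6.84% lower). Hnrnpd was at 138% of its start in WT and 98.3% in KO, and Khsrp at 103% and 65.7%, so in these 2 genes WT showed no fall. This difference followed gene width more than at any other ActD time, with a Spearman correlation of -0.5 across genes. With the width trend removed 316 genes were called in place of 1477. Of the 10 genes Khsrp then still passed, Rc3h1 (-0.06), Rc3h2 (-0.12) and Hnrnpd (-0.18) did not, and Elavl1 did (0.32). Without the first KO library at 3 h none of the 10 passed, without the third WT library at 3 h only 1 did, and 2 did without the third KO library or the second or the third WT library at 1 h.

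From 3 h to 7 h of R837 most of these mRNAs fell in WT. Arid5a fell to 36.8% of its 3 h level, Zfp36 to 48.9% and Rc3h1 to 53.2%, while Zfp36l2 rose 2.54-fold and Hnrnpd 1.46-fold. In WT 2 genes rose and 7 fell, where 58% of all tested genes were called (27.3% higher, 30.7% lower), and in KO 3 rose and 5 fell (60.4%, with 28.7% and 31.7%). With stable-reference scaling the falls of Zfp36l1, Rc3h2, Elavl1 and Tia1 in WT no longer passed. Over 14 alternative runs the fall of Elavl1 (-0.16) passed in 5 and that of Tia1 (-0.28) in 8. Leaving out single libraries gave 6 to 8 genes called in WT, against 9 in the full fit. The difference between genotypes passed for Zfp36l1 and Arid5a only, both higher in KO (12.3% called, 5.45% higher and 6.84% lower).

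Zfp36l1 went from 7.08, 7.24 and 6.43 CPM at 3 h to 5.6, 5.32 and 5.08 CPM at 7 h in WT, and from 10.8, 8.68 and 9.3 CPM to 13.5, 16.3 and 14 CPM in KO. It thus fell in WT (log2 -0.37 ± 0.15, edgeR adjusted p = 0.0285) and rose in KO (0.60 ± 0.14), with the groups apart in each. Groups were likewise apart for 65.8% of all tested genes in WT and 65.3% in KO. The difference between genotypes for Zfp36l1 was 0.98 ± 0.20 (edgeR adjusted p = 0.000498). The fall in WT did not hold with RLE or stable-reference scaling or without any of 4 of the 6 libraries, whereas the difference passed in every alternative run.

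Arid5a fell in both genotypes but less in KO, to 67% of the 3 h level against 36.8% in WT. The difference was 0.86 ± 0.11 (edgeR adjusted p = 2.91e-07). Zfp36 fell to 48.9% and 49.4%, with a difference of 0.01 ± 0.13 (95% interval of the ratio 83.9% to 122%). Zfp36l2 rose less in KO, by 1.5-fold against 2.54-fold, a difference of -0.75 ± 0.27 that did not pass (edgeR adjusted p = 0.0625) but did with DESeq2 (adjusted p = 0.017). Rc3h1 and Rc3h2 fell in both genotypes, and Hnrnpd rose in both.

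**Figure D4:**
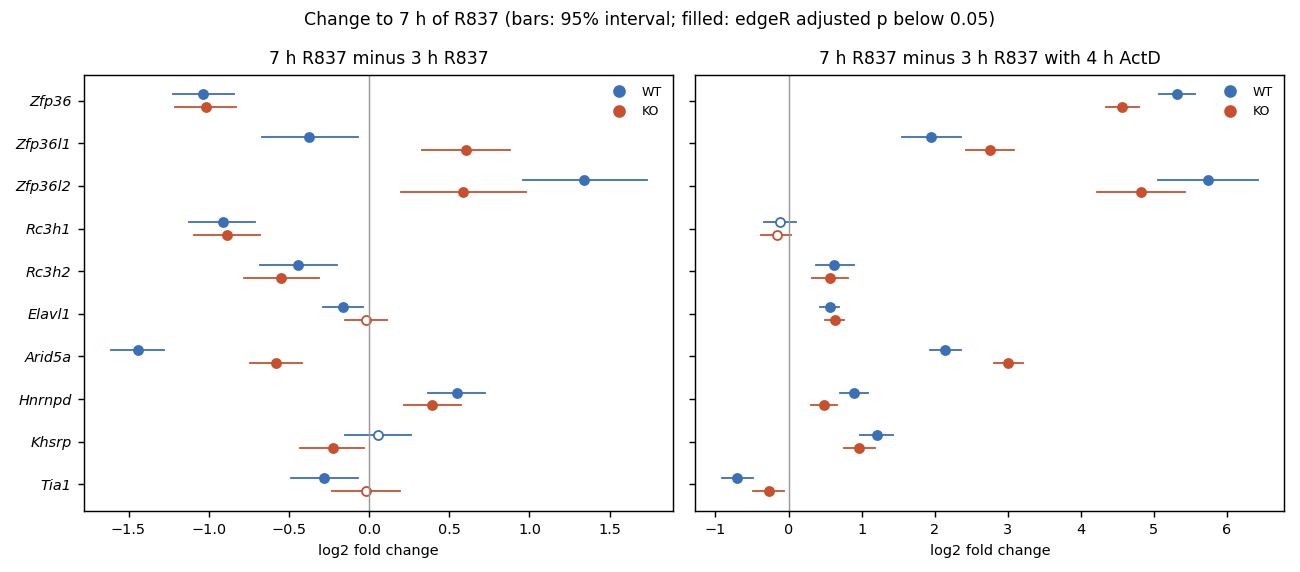
Log2 change of each gene from 3 h to 7 h of R837 (left) and between 7 h of R837 and 3 h of R837 followed by 4 h of ActD (right), in WT and KO, with 95% intervals as bars and filled points for an edgeR adjusted p below 0.05. On the left Zfp36l1 lies below 0 in WT and above 0 in KO, and on the right Zfp36 and Zfp36l2 lie at 4.57 or more in both genotypes.

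Cells at 7 h of R837 and cells at 3 h of R837 plus 4 h of ActD stand at the same time after the first stimulus, with and without transcription in the last 4 h. Zfp36l2 was at 5340% of its ActD level in WT (95% interval 3340% to 8540%) and 2840% in KO (1870% to 4310%), against ActD groups with 1 to 14 counts per library. Zfp36 was 39.9-fold higher in WT and 23.7-fold in KO, and Arid5a 4.43- and 8.04-fold. Rc3h1 did not pass in either genotype, at 92.2% and 89.4%. In each genotype 8 of the 10 genes were higher and Tia1 was lower, where 75.3% of all tested genes were called in WT (37.9% higher, 37.3% lower) and 74.1% in KO (38% and 36.1%). With stable-reference scaling, which moved the median of all genes from -0.02 to 0.66 in WT and 0.39 in KO, Rc3h1 was at 0.55 in WT and Tia1 at 0.14 in KO, so both turned, and Tia1 in WT (-0.01) no longer passed. With the width trend removed Rc3h1 passed as lower in both genotypes (-0.69 in WT and -0.70 in KO). Rc3h2 (0.10 and 0.09) and, in KO, Hnrnpd (0.11) then no longer passed.

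The genotypes differed in this contrast for Zfp36 (-0.75 ± 0.15), Hnrnpd (-0.41 ± 0.13), Zfp36l1 (0.80 ± 0.27), Arid5a (0.86 ± 0.15) and Tia1 (0.43 ± 0.15), where 14.6% of all tested genes were called (6.71% higher, 7.94% lower). Leaving out single libraries gave 2 to 6 genes, with 2 without the third WT library of either group and 3 without the first or second WT or the second KO library at 7 h, or the first or the third KO library after ActD. The calls of Zfp36 and Arid5a held without each of the 12 libraries, and those of Hnrnpd, Zfp36l1 and Tia1 did not. With stable-reference scaling Zfp36l1 (0.51) and Tia1 (0.15) no longer passed.

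The mRNAs whose group means ran most like those of each gene are named as a description, by Pearson correlation of log2 CPM over the 12 groups, which share genotype, time and library effects. For Zfp36 these were Dusp1 (0.988), a phosphatase of MAP kinases, Tnf (0.983) and Ier3 (0.978). For Zfp36l1 they were Phlda1 (0.966), Ddit4 (0.957) and Kdm6b (0.954), and for Zfp36l2 they were Zfp597 (0.988), Pik3cb (0.984) and Trim8 (0.983). Arid5a ran most like Vcpip1 (0.990), B4galt5 (0.986) and Socs6 (0.985). Khsrp ran like Patl1 (0.990) and Gigyf2 (0.987), the first a factor of mRNA decapping and Gigyf2 a translational repressor. Elavl1 ran like Dusp4 (0.981), Itpkc (0.980) and Birc3 (0.980), and Hnrnpd like Sec23ip (0.966), E2f4 (0.966) and Tnip1 (0.957). For Rc3h1 the genes were Xpo4 (0.955), Erbin (0.951) and Rgs16 (0.948), for Rc3h2 Zeb2 (0.969), Il10ra (0.930) and Ash1l (0.927), and for Tia1 Pex7 (0.976), Fas (0.967) and Zfp560 (0.962). Among the 10 genes themselves, Zfp36 correlated with Zfp36l1 at 0.93, with Rc3h2 at 0.92 and with Zfp36l2 at 0.91. Its lowest values were 0.42 with Rc3h1, 0.41 with Hnrnpd and -0.74 with Tia1. Tia1 correlated negatively with each of the others (-0.34 to -0.86).

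Other genes of the pathway were described from lists chosen with earlier results of these data known, so their counts are no test. Over all tested genes 15.2% were higher and 12.6% lower in KO at 3 h, and 15.5% and 15.1% at 7 h. Of 35 other RNA-binding proteins of AU-rich or stem-loop elements tested, 13 were higher and 2 lower in KO at 3 h, and 14 and 3 at 7 h (median log2 fold changes 0.19 and 0.18). Zc3h12a, which encodes Regnase-1, was at 160 ± 4.03 CPM in WT and 255 ± 1.55 CPM in KO at 7 h (log2 0.67 ± 0.08), and its relative Zc3h12d was lower in KO (-1.16 ± 0.07). Cpeb4, which binds cytoplasmic polyadenylation elements, was higher at 3 h (0.57 ± 0.11). Of 15 kinases, phosphatases and 14-3-3 proteins that act on tristetraprolin, 3 were higher and 3 lower at 3 h, and 7 and 2 at 7 h. Mapkapk2, whose kinase product phosphorylates tristetraprolin, was higher at 3 h (0.30 ± 0.07) and Mapk14, encoding p38 alpha, was lower (-0.37 ± 0.07). At 7 h Mapkapk3 (0.82 ± 0.06) and Map2k3 (0.70 ± 0.07) were higher.

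Of 26 decay partners, such as subunits of CCR4-NOT and decapping factors, 8 were higher and 1 lower in KO at 3 h, and 6 and 1 at 7 h. Malt1, encoding a protease that cleaves Roquins and Regnase-1, was at 129 ± 5.24 CPM in WT and 400 ± 10.3 CPM in KO at 7 h (3.1-fold, log2 1.63 ± 0.06). Gigyf2 was higher at 3 h (0.49 ± 0.10) and Cnot7, a deadenylase subunit, at 7 h (0.38 ± 0.08).

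Most transcripts in the AU-rich and stem-loop lists were higher in KO, but these lists too were chosen with earlier results known. Over all tested genes 15.2% were higher at 3 h and 15.5% at 7 h. Of 30 AU-rich element transcripts, 17 were higher and 3 lower at 3 h and 25 and 2 at 7 h, with median log2 fold changes of 0.47 and 1.38 against 0.01 and -0.01 over all genes. Of 13 stem-loop transcripts, 11 were higher and 0 lower at both times, with medians of 0.38 and 0.83. The lists share some genes, such as Tnf and Il6. At 7 h Il6 was at 28.2 ± 0.98 CPM in WT and 365 ± 5.14 CPM in KO, and Cxcl3, a neutrophil chemokine, was 8.25-fold higher. Ptgs2, the inducible cyclooxygenase, was 5.06-fold higher.

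Under ActD the AU-rich list fell in both genotypes, 21 of 30 transcripts being lower at 4 h in each, with medians of -1.39 in WT and -1.17 in KO. Over all tested genes 36.6% were lower in WT and 36.7% in KO at that time. The list was lower still at 2 h, with 27 lower in WT and 24 in KO and medians of -2.05 and -1.84. At 2 h 26.5% of all tested genes were lower in WT and 27.4% in KO. The difference between genotypes was called for 0.0218% of all tested genes at 0.5 h, 10.7% at 1 h, 0.0582% at 2 h and 0.291% at 4 h. Of the 30, the change differed between genotypes for 0 at 0.5 h, 4 at 1 h (all higher in KO), 0 at 2 h and 1 at 4 h (higher in KO). For the stem-loop list 8 of 13 were lower in each genotype at 4 h (medians -3.83 and -3.68). Between genotypes the change of 1 differed at 1 h (lower in KO) and that of 0 at 0.5, 2 and 4 h.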

How the data were processed

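Per the labels, RNA of bone marrow-derived macrophages was sequenced as single-end 50-base reads on 36 libraries. Per the submitters' processing notes, GSNAP and GRCm38 were used. The authors deposited, for each gene and library, a whole-number count, an RPKM value and a gene width; no source used here names the counter, the annotation release or the use of strand. Counts were used for all tests. The deposited RPKM values served only to check them: gene counts made up 90.9 to 91.8% of the total those values imply. RPKM levels in the text were recomputed from TMM-normalized CPM and the deposited width. No replicate pair agreed within counting noise, with squared differences 2.48 to 61 times those of counting noise. Replicates were uneven in some groups. In WT the ratios of the pairs were 17.7, 61 and 27 at 0.5 h of ActD and 9.92, 42.7 and 36.2 at 4 h. In KO at 3 h of R837 they were 9.18, 25.8 and 13.9. In WT at 7 h of R837 they were 3.54, 3.1 and 2.48.

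Of 52636 identifiers, 52403 were named from GENCODE M21 and 13748 passed filterByExpr. A single edgeR (4.0.16, R 4.3.3) quasi-likelihood model of 12 groups with TMM gave 24 contrasts, with Benjamini-Hochberg adjustment over all tested genes at 0.05. The biological coefficient of variation was 7.5%. Intervals are 95%. The pipeline was tested on simulated data. Each library was treated as independent; libraries of different conditions may come from the same mice, which was not modelled. DESeq2 (1.42.0) was an alternative, beside those in the closing section.

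Named were the 10 genes, N4bp1, the 3 genes most correlated with each over group means (mean CPM of at least 5, no predicted genes, clones or pseudogenes; log2 CPM with a prior count of 2; 1 of these is not reported here), and from each list the 2 genes with the smallest p among those called in KO minus WT at 3 h and at 7 h. The genes and lists were chosen with earlier results of these data known. 3′ UTRs came from GENCODE M21 and promoters from RefSeq (GRCm38.p6).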

Additional observations from a re-analysis of the deposited data

Results flagged for a closer look

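In each of these results the change over time or treatment differed between genotypes, by the test of the difference itself (edgeR quasi-likelihood, 3 libraries per group, 4 groups each). Values are log2 differences, KO change minus WT change.

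From 3 h to 7 h of R837 the change of Zfp36l1 was 0.98 higher in KO, a fall in WT against a rise in KO, and that of Arid5a was 0.86 higher, a smaller fall in KO. Both passed in every alternative run.

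After 1 h of ActD the changes of Rc3h1 (-0.53), Rc3h2 (-0.53), Hnrnpd (-0.49) and Khsrp (-0.65) were lower in KO. With the trend in gene width removed, of these 4 the call of Khsrp remained, and without the first KO library at 3 h none did.

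After 4 h of ActD the change of Zfp36 was 0.76 higher in KO, a smaller decline. The starting level without ActD was itself higher in KO, and 4 of 12 single-library omissions ended the call.

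Between 4 h of ActD and 7 h of R837 alone, the difference was -0.75 for Zfp36, 0.80 for Zfp36l1, 0.86 for Arid5a, -0.41 for Hnrnpd and 0.43 for Tia1. The calls of Zfp36 and Arid5a held without each of the 12 libraries, whereas those of Zfp36l1, Hnrnpd and Tia1 ended without some.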

How the results depend on the processing

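Of 240 gene results (10 genes in 24 contrasts), 225 to 238 kept their side of the threshold, with no turn of direction in one that passed in either fit, with RLE or total-count scaling, DESeq2, no filter, a filter of 1 CPM in 3 libraries or, for 226 of 239, a fit of only the compared libraries, in which Zfp36l2 at 4 h of ActD did not pass the filter for KO minus WT. Stable-reference scaling (98 genes) kept 205 and removal of the gene-width trend 209, and 1670 of 1800 results kept theirs with a library left out.

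Values below the threshold in both fits could change sign and are counted as kept. Among results past the threshold in either fit, direction turned with stable-reference scaling for Tia1 at 1 h of ActD in KO (-0.05) and at 4 h in WT (-0.18) and KO (-0.26), for Hnrnpd at 2 h in KO (-0.38), and between ActD and 7 h for Rc3h1 in WT (0.55) and Tia1 in KO (0.14). With the width trend removed it turned for Elavl1 (0.06) and Hnrnpd (0.24) at 1 h in KO and for Hnrnpd at 4 h in WT (0.14) and KO (0.39). Stable-reference scaling moved the median of all genes to between -0.61 and 0.66, and the share of calls that were higher from 46.6% to 8.15% for 4 h of ActD in WT. The causes of these changes were not tested.

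Counts of the 10 genes called moved as follows. For KO minus WT at 0.5 h of ActD, 4 became 2 with the width trend removed and 2 with only the compared libraries. At 1 h, 3 became 1 with stable-reference scaling, with total counts and at adjusted p below 0.01. With stable-reference scaling 7 became 4 for KO minus WT at 7 h, 9 became 5 for 7 h minus 3 h in WT, and 5 became 3 for 0.5 h of ActD in WT. For the difference between genotypes at 1 h of ActD, 4 became 2 with the width trend removed and 1 at adjusted p below 0.01. At 4 h, 1 became 0 with stable-reference scaling, at adjusted p below 0.01 and with only the compared libraries. Between ActD and 7 h, 5 became 3 with stable-reference scaling, total counts or no filter, and 2 at adjusted p below 0.01.

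Leaving out single libraries gave 3 to 6 genes for KO minus WT at 3 h, 1 to 5 at 0.5 h of ActD and 1 to 3 at 1 h. It gave 6 to 8 for 7 h minus 3 h of R837 in WT, where the full fit gave 9. For the difference between genotypes it gave 0 to 4 at 1 h, 0 to 1 at 4 h and 2 to 6 between ActD and 7 h. Omission of 2 libraries at 3 h together, chosen after seeing the data, gave 3. No paired analysis was possible because the labels carry no replicate numbers. Depth limited Zfp36l2 under ActD, at 1 to 30 counts per library from 2 h on.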

Other observations

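N4bp1 itself behaved differently in the genotypes under ActD. In WT its mRNA was at 134 ± 12 CPM without ActD and 57.6 ± 5.11 CPM after 4 h, and in KO at 84.1 ± 2.45 and 87.7 ± 9.52 CPM. The change at 4 h was -1.21 ± 0.08 on the log2 scale in WT and 0.06 ± 0.08 in KO, a difference of 1.27 ± 0.11 (edgeR quasi-likelihood adjusted p = 4.09e-10). The KO libraries were thus below the WT libraries at 3 h and above them at 4 h of ActD.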
